A study of Mus musculus with 21 samples.

Results

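Astrocytes are the glial cells that clear transmitter glutamate and potassium from around neurons, move water and ions at blood vessels and supply neurons with metabolites. In injury or inflammation they become reactive: they enlarge their filament network and secrete acute-phase and matrix-modifying proteins, often downstream of cytokine receptors that signal through the transcription factor STAT3. The genes described here are 37 genes chosen by symbol, 24 astrocyte identity genes (Gfap to Slc39a12) and 13 reactive astrocyte genes (Vim to Mt3). All 37 were listed in each of the 4 deposited tables, out of 22040 genes in at least 1 table and 19399 in all of them.

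RNA had been sequenced from 21 primary cortical neuron cultures of newborn mice, either wildtype (WT) or transgenic for hTau P301S (Tau), a mutant human tau that aggregates and is driven by the prion promoter. There were 5 Tau DMSO, 5 Tau AdipoRon, 5 WT DMSO and 6 WT AdipoRon cultures, where AdipoRon is a small agonist of the adiponectin receptors given at 10 μM for 24 h (10 mM in one protocol text of the labels, 10 μM in all other sources) and DMSO is its vehicle. The Tau cultures had received pre-formed fibrils on day 7 and 18 more days of culture. For WT cultures the sources differ: the paper's results place both genotypes after seeding, while its methods name only transgenic neurons as seeded. Seeding of WT cultures is thus not settled, and if they were unseeded, transgene and fibrils cannot be told apart here. Per the study's reporting summary, samples from the same animal went into each treatment and littermates were used to compare genotypes, so libraries of the DMSO and AdipoRon pools may share animals and cannot be taken as independent. All cultures had been given 1 μM AraC, a drug that kills dividing cells, to remove glia.

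Each table gives 1 mean level per gene over the libraries it compared, in log2 CPM, the log2 of read counts scaled to a common library size. The tables pool 10 DMSO libraries of both genotypes, 11 AdipoRon libraries of both genotypes, 11 WT libraries of both treatments and 10 Tau libraries of both treatments. The means carry no spread between libraries, so every difference below is a description with no error and no test. The paper gives an average number of reads per sample, but not the depth of each library. Averaged over all libraries on the linear scale, the DMSO with AdipoRon means and the WT with Tau means gave the same level to within 0.0304 (log2) for each of the 19399 genes. The means are thus averages of CPM, in which 1 high library can weigh more than in an average of logarithms. In such bulk libraries, fewer cells of a type and less RNA per cell cannot be told apart.

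The promoters of 4 of these genes are shown, as RefSeq gives them on GRCm38.p6 from 250 bases before to 50 bases after the start, each read 5′ to 3′ on the strand of the gene. Gfap, the astrocyte filament gene, and Steap4, a metalloreductase gene of reactive cells, were taken because their windows hold the palindrome TTCCNGGAA bound by STAT factors, printed in capitals. Mt1 and Mt2, the neighbouring metallothionein genes, were taken for TGCGCNC, 1 form of the metal response element core, in capitals and searched on both strands. Gfap lies at chr11:102897151-102897450 (minus strand), Steap4 at chr5:7960222-7960521, Mt2 at chr8:94172368-94172667 and Mt1 at chr8:94178839-94179138 (all 3 on the plus strand).
Gfap: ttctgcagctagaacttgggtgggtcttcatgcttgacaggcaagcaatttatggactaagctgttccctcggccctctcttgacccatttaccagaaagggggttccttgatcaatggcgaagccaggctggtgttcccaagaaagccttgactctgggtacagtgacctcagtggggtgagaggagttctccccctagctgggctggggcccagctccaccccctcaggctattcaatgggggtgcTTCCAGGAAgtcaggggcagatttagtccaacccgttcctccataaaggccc
Steap4: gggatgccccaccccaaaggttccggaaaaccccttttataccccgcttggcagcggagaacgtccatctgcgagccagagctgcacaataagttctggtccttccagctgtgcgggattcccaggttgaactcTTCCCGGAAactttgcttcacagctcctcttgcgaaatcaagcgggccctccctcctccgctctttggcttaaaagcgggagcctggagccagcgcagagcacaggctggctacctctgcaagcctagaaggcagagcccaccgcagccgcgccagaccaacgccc
Mt1: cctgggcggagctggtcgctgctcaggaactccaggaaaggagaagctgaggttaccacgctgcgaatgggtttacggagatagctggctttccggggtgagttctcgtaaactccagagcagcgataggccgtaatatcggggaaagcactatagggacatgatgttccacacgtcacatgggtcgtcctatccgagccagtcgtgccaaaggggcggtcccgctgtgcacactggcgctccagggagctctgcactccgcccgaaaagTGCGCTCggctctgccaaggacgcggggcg
Mt2: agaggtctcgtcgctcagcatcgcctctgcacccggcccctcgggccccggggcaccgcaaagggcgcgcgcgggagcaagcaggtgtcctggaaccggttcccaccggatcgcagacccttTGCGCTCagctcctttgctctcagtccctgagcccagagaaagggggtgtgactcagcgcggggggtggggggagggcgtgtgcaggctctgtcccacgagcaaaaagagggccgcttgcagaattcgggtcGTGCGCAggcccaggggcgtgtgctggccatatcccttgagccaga

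Counted from the first transcribed base as 1, the STAT palindrome began at base -2 of Gfap and at base -116 of Steap4. The metal response core began at base 21 of Mt1 and at bases -128 and 5 of Mt2. Promoter windows were found for 34 of the 37 genes. The STAT palindrome was in windows of 3 genes (Gfap, Steap4 and Aldoc), beside 1.15% of all 32851 windows, and the metal response core in windows of 10 genes, beside 15.4% of all windows. A match of letters is not evidence of binding, and no value below rests on these searches.

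Astrocyte genes were among the most abundant transcripts of these cultures. The median level of the 37 genes was 8.34 log2 CPM in DMSO libraries, 8.42 in AdipoRon, 8.39 in WT and 8.27 in Tau libraries, where the median of all genes in the same tables lay between 3.54 and 3.89. Summed, they took 1.77% of all CPM in DMSO and 1.82% in AdipoRon libraries, 1.80% in WT and 1.77% in Tau libraries. The 12 neuronal markers chosen for comparison summed to 0.551% in DMSO, 0.479% in AdipoRon, 0.495% in WT and 0.538% in Tau libraries. Sums over lists of unequal number and transcript length are not a ratio of cells.

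**Figure D1:**
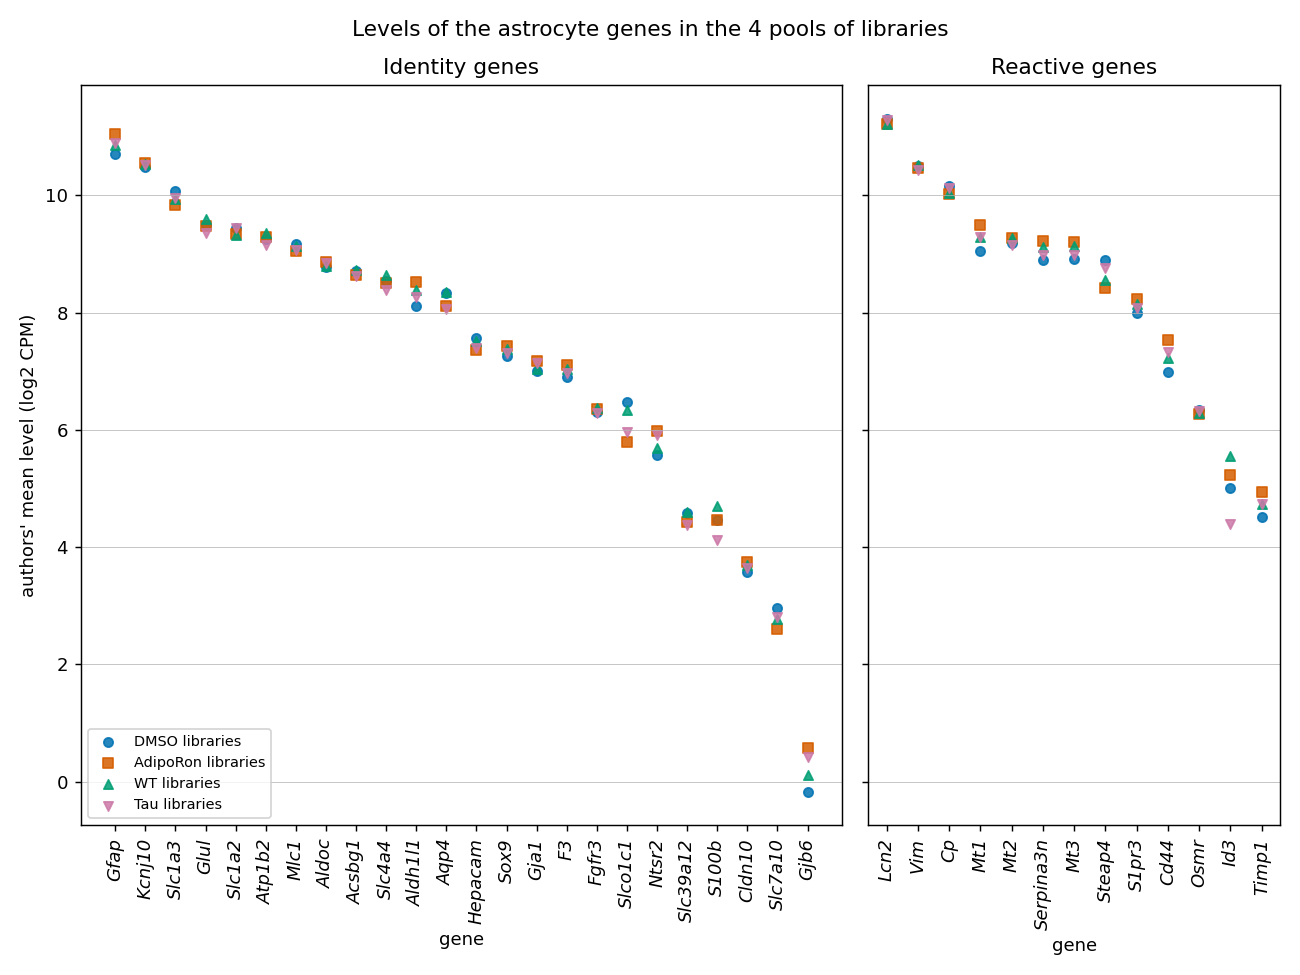
Mean level of each gene (y axis, log2 CPM, as the authors averaged it) in the DMSO, AdipoRon, WT and Tau libraries (symbols), with identity genes on the left and reactive genes on the right, each sorted by level. No error bars can be drawn. The 4 symbols of most genes overlap, and Id3, S100b, Slco1c1, Gjb6 and Cd44 are spread by over 0.5.

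To compare genes with each other, levels were divided by the length of each gene's canonical transcript, which was known for all 37 genes and for 80.3% of all genes. On this scale (log2 CPM per kilobase, mean over all libraries), 24 of the 37 genes lay above the 90th percentile of all genes, of which 15 were identity and 9 reactive genes. The median was 5.65 for identity and 7.91 for reactive genes, against 2.62 for all genes. Neuronal markers had a median of 6.37 and a range from 5.46 (Gad2) to 8.77 (Snap25, a synaptic vesicle fusion protein). Labelled as neurons, the cultures therefore carried both the neuronal markers and astrocyte transcripts at levels of the same order per length.

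**Figure D2:**
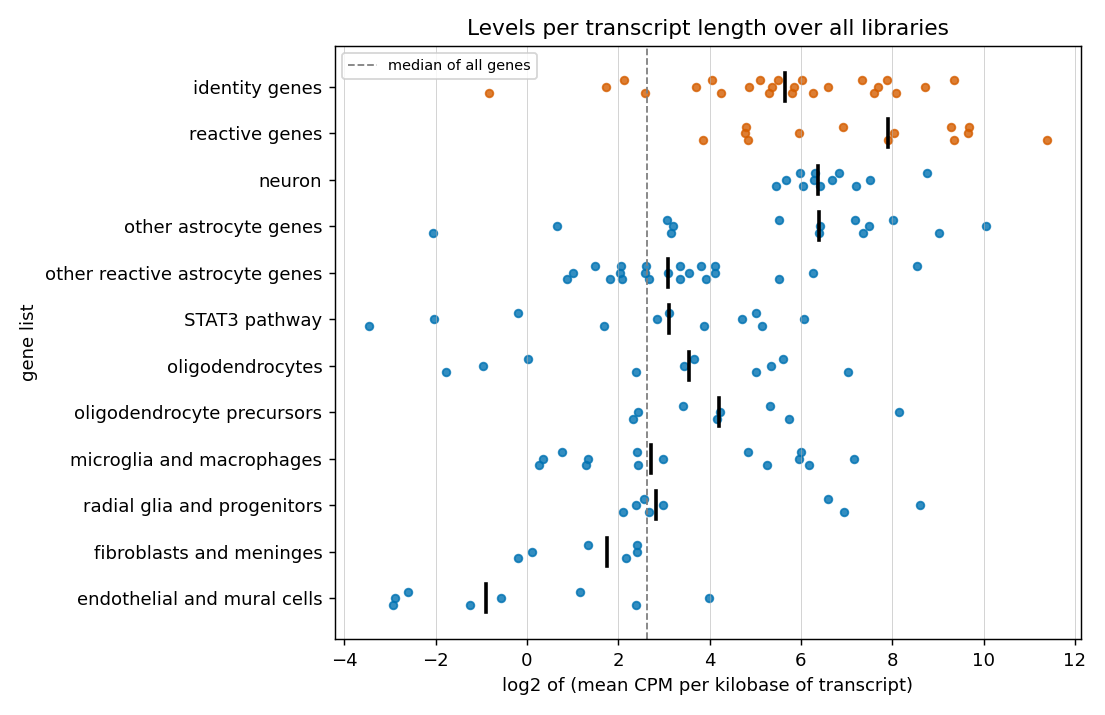
Level per transcript length (x axis, log2 of mean CPM per kilobase over all libraries) of each gene in each list, with black bars at list medians and a dashed line at the median of all genes. Identity and reactive genes (orange) reach as high as or higher than the neuronal markers, and endothelial and mural genes sit lowest, with a median of -0.90.

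Gfap encodes the intermediate filament protein by which astrocytes are commonly stained. Its level was 10.70 log2 CPM in DMSO, 11.04 in AdipoRon, 10.86 in WT and 10.90 in Tau libraries. Per kilobase it stood at 9.36, at percentile 99.9 of all genes and above each of the 12 neuronal markers. Sox9, a transcription factor of the astrocyte lineage, had 7.26, 7.43, 7.38 and 7.32 log2 CPM in the same order. S100b, a calcium-binding protein also made by cells of the oligodendrocyte lineage, was much scarcer, at 4.46, 4.46, 4.70 and 4.12 log2 CPM.

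The glutamate genes were also high in log2 CPM. Slc1a3 (GLAST) and Slc1a2 (GLT-1) encode the astrocyte transporters that take up glutamate, and Glul encodes glutamine synthetase, which converts it to glutamine. In DMSO, AdipoRon, WT and Tau libraries, Slc1a3 had 10.07, 9.83, 9.94 and 9.95 log2 CPM. Slc1a2 had 9.45, 9.34, 9.33 and 9.45 log2 CPM, and Glul had 9.50, 9.49, 9.60 and 9.36. Slc1a2 has a canonical transcript of 12025 bases, so that per kilobase it stood at 5.80, below Glul at 8.72 and Slc1a3 at 7.88.

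Genes of water, potassium and ion balance were also high throughout. Kcnj10 (Kir4.1), the potassium channel by which astrocytes buffer potassium, had 10.49 log2 CPM in DMSO, 10.56 in AdipoRon, 10.53 in WT and 10.52 in Tau libraries, the smallest range over the 4 pools of any of the 24 identity genes at 0.07. Aqp4, the water channel of astrocyte end feet, had 8.34, 8.11, 8.35 and 8.07 log2 CPM in that order, with lower means in AdipoRon and in Tau libraries. The other members of this set are the bicarbonate transporter Slc4a4, the sodium pump subunit Atp1b2 and Mlc1 and Hepacam, a membrane protein and its adhesion partner. Their levels per kilobase lay between 5.37 (Hepacam) and 7.68 (Atp1b2).

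The metabolic identity genes Aldh1l1 (folate metabolism), Aldoc (glycolysis) and Acsbg1 (activation of long-chain fatty acids) had 6.27, 7.34 and 6.60 log2 CPM per kilobase. Of the surface genes, F3 (tissue factor, which starts clotting) stood at 6.02, the neurotensin receptor gene Ntsr2 at 5.11 and the growth factor receptor gene Fgfr3 at 4.26 per kilobase. The carriers Slco1c1 (thyroid hormone), Slc39a12 (zinc) and Slc7a10 (small neutral amino acids) stood at 4.05, 2.13 and 1.74.

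Not every identity gene was abundant. Gja1 and Gjb6 encode connexin 43 and connexin 30, the gap junction proteins that couple astrocytes. Gja1 had 7.00 log2 CPM in DMSO, 7.18 in AdipoRon, 7.04 in WT and 7.15 in Tau libraries. Gjb6 had -0.17, 0.57, 0.10 and 0.42 in the same order, which is a mean of 0.887 CPM in DMSO and 1.48 CPM in AdipoRon libraries and the lowest level of all 37 genes. Cldn10, a claudin, and Slc7a10 followed, with 3.58 and 2.96 log2 CPM in DMSO libraries. Per kilobase, Gjb6, Slc7a10, Slc39a12 and Cldn10 were the 4 genes below the median of all genes.

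The secreted proteins among the reactive genes ranged widely in level. Lcn2 encodes lipocalin 2, an iron-siderophore binding protein that reactive astrocytes secrete. It had 11.31 log2 CPM in DMSO, 11.22 in AdipoRon, 11.22 in WT and 11.29 in Tau libraries, and at 11.39 per kilobase it was the highest of the 37 genes. Cp (ceruloplasmin, a copper-carrying ferroxidase) had 10.16, 10.03, 10.04 and 10.13 log2 CPM, and the protease inhibitor Serpina3n had 8.89, 9.23, 9.13 and 8.99. Timp1, an inhibitor of matrix metalloproteinases, was lower at 4.51, 4.93, 4.73 and 4.74 log2 CPM. Thus Lcn2, Cp and Serpina3n were high in DMSO libraries, with vehicle alone, and in libraries of both genotypes.

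Vim encodes vimentin, a filament protein that astrocytes share with progenitors, microglia and fibroblasts. It had 10.50 log2 CPM in DMSO, 10.47 in AdipoRon, 10.51 in WT and 10.43 in Tau libraries. The surface genes were Steap4, S1pr3 (a sphingosine-1-phosphate receptor), Cd44 (the hyaluronan receptor) and Osmr (the oncostatin M receptor), which stood at 6.93, 5.96, 4.79 and 3.85 log2 CPM per kilobase. Osmr had 6.34 log2 CPM in DMSO, 6.28 in AdipoRon, 6.29 in WT and 6.32 in Tau libraries.

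The metallothioneins bind zinc and copper, and Mt1 and Mt2 are induced by metals and stress while Mt3 is the brain form. Mt1 had 9.04 log2 CPM in DMSO, 9.49 in AdipoRon, 9.29 in WT and 9.28 in Tau libraries. Mt2 had 9.19, 9.27, 9.28 and 9.16 log2 CPM, and Mt3 had 8.91, 9.21, 9.14 and 8.99. Their transcripts are short, and per kilobase the 3 genes stood at 9.69, 9.65 and 9.28, among the 6 highest of the 37 genes.

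How far the levels differed by treatment was read from the AdipoRon and DMSO libraries, which share no library and each hold both genotypes (5 Tau with 6 WT against 5 Tau with 5 WT). Treatment effects within a genotype cannot be told apart in these means, and the tables were averaged separately. Of the 37 genes, 2 had a mean at least 0.5 (log2) above that in DMSO libraries, beside 4.36% of all 19693 genes, and 1 had a mean at least 0.5 below, beside 6.39% of all genes. These shares of 5.41% and 2.70% of the astrocyte genes are near the background. The median difference was 0.02 for identity genes, 0.21 for reactive genes and 0.02 for all genes. Above 0 lay 13 of 24 identity and 8 of 13 reactive genes, beside 10823 of all 19693 genes.

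Those 2 genes were Gjb6 and Cd44. Gjb6 differed by 0.74, but from a mean of about 1 CPM. Cd44 had 6.98 log2 CPM in DMSO and 7.53 in AdipoRon libraries, a difference of 0.55 or 1.46-fold. It is the only reactive gene past the limit of 0.5, and it is also expressed by microglia. Between Tau and WT libraries Cd44 differed by 0.10, where the 14 microglial and macrophage markers had a median of -0.92. The part of microglia in the Cd44 values was not tested.

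Further differences toward higher levels in AdipoRon libraries were 0.45 for Mt1 (1.37-fold), 0.42 for Aldh1l1 (8.11 against 8.53 log2 CPM) and 0.42 for Timp1. Ntsr2 followed with 0.40 (1.32-fold) and Gfap with 0.34 (1.27-fold). The 3 metallothioneins were unequal, since Mt1 differed by 0.45, Mt3 by 0.29 and Mt2 by 0.08. The pair that lies side by side on chromosome 8 thus did not share a difference of one size.

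Slco1c1, the thyroid hormone carrier, was the gene with the lower mean, at 6.48 log2 CPM in DMSO and 5.79 in AdipoRon libraries, a difference of -0.69 or 0.620-fold. Steap4 followed with -0.48 (8.90 against 8.42 log2 CPM), Slc7a10 with -0.35, Slc1a3 with -0.24 and Aqp4 with -0.23. All 3 carriers of this set (Slco1c1, Slc7a10 and Slc39a12) and all 3 glutamate genes had differences below 0, the latter no lower than -0.24. Glul was nearly equal at -0.01, and 8870 of all 19693 genes lay below 0. Among the 5 genes with the highest mean log2 CPM, the difference was 0.34 for Gfap, -0.09 for Lcn2, 0.07 for Kcnj10, -0.02 for Vim and -0.13 for Cp.

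Reactive genes thus lay on both sides of 0, with Cd44, Mt1, Timp1 and Serpina3n (0.34) on one side and Steap4, Cp, Lcn2 and Osmr (-0.07) on the other. Summed over the 13 genes, the CPM in AdipoRon libraries was 1.02 times that in DMSO libraries, and over the 24 identity genes 1.03 times. Neuronal markers were lower in 11 of 12 genes (median -0.21, summed CPM 0.870 times), and microglial markers higher in 11 of 14 (median 0.40, summed CPM 1.24 times, from 595 to 739). Oligodendrocyte precursor markers were lower in 7 of 8 (median -0.26, summed CPM 0.821 times) and fibroblast markers in 5 of 6 (median -0.17, summed CPM 0.902 times). The median differences were 0.03 for oligodendrocyte, 0.02 for radial glia and progenitor and 0.18 for endothelial and mural markers. The defining microglial genes Tmem119 and P2ry12 had 2.24 and 1.73 log2 CPM in DMSO and 2.65 and 1.51 in AdipoRon libraries. The 3 lower microglial markers were Cx3cr1 (-0.47, from 5.13 to 4.66 log2 CPM), P2ry12 (-0.22) and Csf1r (-0.12). The part of other cell types in the astrocyte gene values was not tested.

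**Figure D3:**
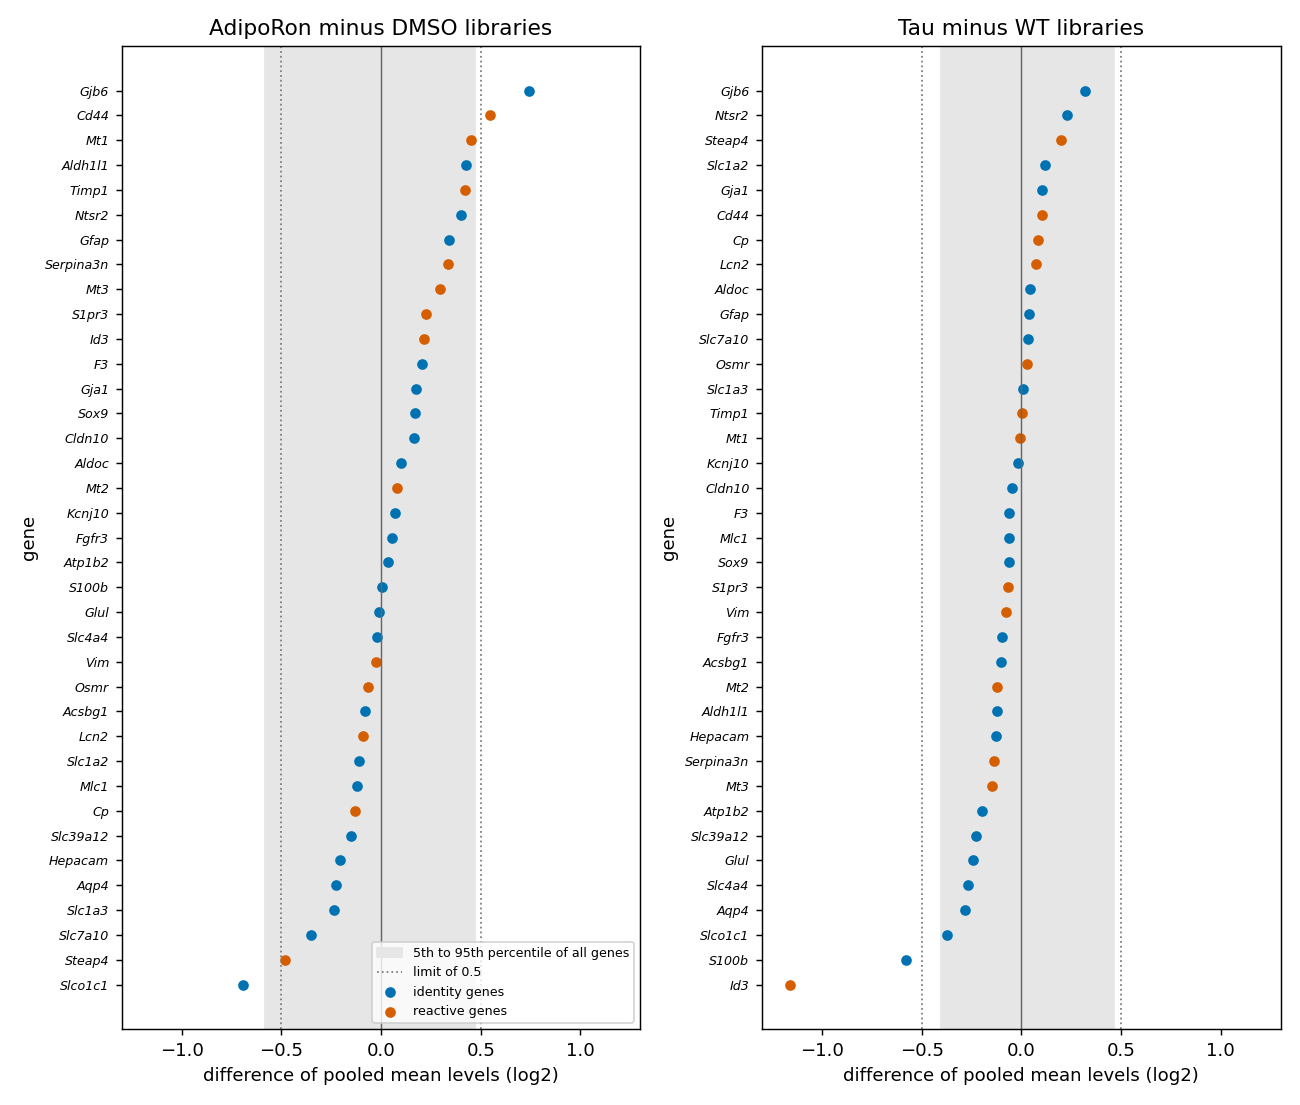
Difference of mean level (x axis, log2) between AdipoRon and DMSO libraries (left) and between Tau and WT libraries (right) for each of the 37 genes, sorted within each panel, with the grey band from the 5th to the 95th percentile of all genes and dotted lines at 0.5 and -0.5. On the left Gjb6, Cd44 and Slco1c1 lie outside the dotted lines, and on the right Id3 and S100b.

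Tau and WT libraries, which also share no library, were compared over both treatments. None of the 37 genes (0) had a mean at least 0.5 above that in WT libraries, beside 4.22% of all 19890 genes, and 2 had a mean at least 0.5 below, beside 3.51% of all genes. Most of the genes past this limit in the background are scarce, since among the 9599 genes over 4 log2 CPM in both pools 0.125% were higher and 0.958% lower, beside 0 and 2 of the 34 astrocyte genes at such levels. The median difference was -0.06 for identity genes, -0.0050 for reactive genes and 0.00 for all genes. Above 0 lay 14 of the 37 genes, beside 10086 of all 19890 genes.

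Id3, an inhibitor of basic helix-loop-helix transcription factors that acts downstream of BMP and TGF-beta signals, was the widest apart. Its level was 5.56 log2 CPM in WT and 4.40 in Tau libraries, a difference of -1.16 or 0.447-fold, at percentile 0.297 of all genes. In CPM the means were 47.2 in WT and 21.1 in Tau libraries, against 32.3 in DMSO and 37.5 in AdipoRon libraries. Without Id3, the difference of the other 12 reactive genes ranged from -0.15 to 0.20.

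S100b had 4.70 log2 CPM in WT and 4.12 in Tau libraries, a difference of -0.58 or 0.670-fold. Slco1c1 (-0.37), Aqp4 (-0.28) and Slc4a4 (-0.27) were the next lower in Tau libraries. All 6 genes of water, potassium and ion balance had differences below 0, from -0.28 to -0.02, beside 9804 of all 19890 genes. Their summed CPM in Tau was 0.927 times that in WT libraries. Gjb6 (0.32), Ntsr2 (0.23), Steap4 (0.20), Slc1a2 (0.12) and Gja1 (0.10) had the largest differences above 0. For Gfap the difference was 0.04, for Lcn2 0.07, for Vim -0.08 and for Cp 0.09, so that these abundant genes had nearly equal means in both genotypes.

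Other glial lists stood further apart between the genotypes. All 14 microglial and macrophage markers had a lower mean in Tau libraries, with a median difference of -0.92 and summed levels of 860 CPM in WT and 454 CPM in Tau libraries. All 8 oligodendrocyte precursor markers were lower as well (median -1.16, from 1374 to 897 CPM), and 7 of the 9 oligodendrocyte markers with both values (median -0.52). The precursor markers ranged from -2.11 (Gpr17) to -0.17 (Olig1), and the oligodendrocyte markers Mobp (1.15) and Ermn (0.86) were higher. The 24 identity genes summed to 9787 CPM in WT and 9444 CPM in Tau libraries, and the 13 reactive genes to 8224 and 8212 CPM. All 8 radial glia and progenitor markers were lower too, with a median of -0.13 and the proliferation genes Mki67 (-0.72) and Top2a (-0.63) furthest apart, while 5 of 6 fibroblast markers were higher (median 0.35) and endothelial and mural markers had a median of -0.06. Neuronal markers were higher in Tau libraries in 10 of 12 genes, with a median of 0.09 and a summed CPM 1.09 times that in WT libraries. S100b, as a gene of the oligodendrocyte lineage too, and Id3 had means in the direction of the glial lists, and the part of these cells in both genes was not tested.

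**Figure D4:**
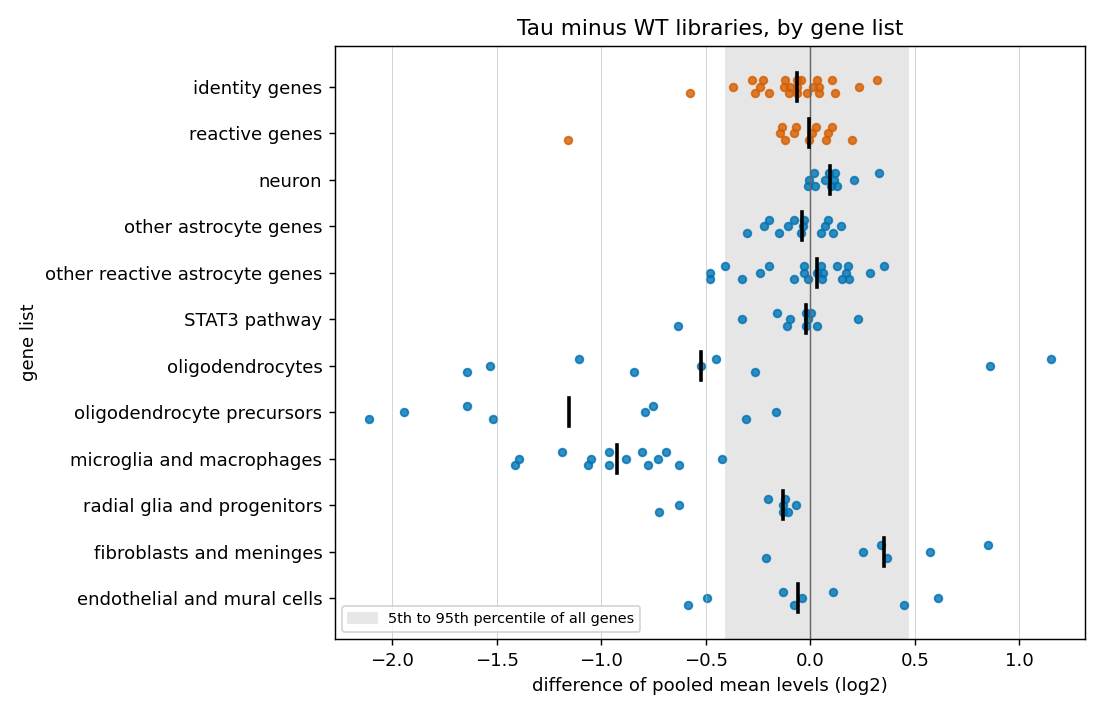
Difference of mean level between Tau and WT libraries (x axis, log2) for each gene of each list, with black bars at list medians and the grey band from the 5th to the 95th percentile of all genes. Identity and reactive genes (orange) cluster near 0 apart from S100b and Id3, while microglial markers have a median of -0.92. Oligodendrocyte precursor markers have a median of -1.16 and spread from -2.11 to -0.17.

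Further genes of astrocytes were read from longer lists. Of 14 other astrocyte genes, 0 differed by 0.5 or more between AdipoRon and DMSO libraries, with a range from -0.16 to 0.30, beside 4.36% higher and 6.39% lower among all genes. Between Tau and WT libraries 0 did so, with a range from -0.30 to 0.15, beside 4.22% higher and 3.51% lower. At these shares, counts of 0 among 14 genes are near the background. Apoe, the main lipid carrier protein of astrocytes, which microglia express too, had 11.03 log2 CPM in DMSO, 11.30 in AdipoRon, 11.26 in WT and 11.07 in Tau libraries. At 10.05 per kilobase it exceeded each of the 37 genes except Lcn2.

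The 22 other reactive astrocyte genes were less uniform. This list was chosen with earlier results of these data known, so its counts describe the listed genes only. With AdipoRon, 5 of the 21 with both values had means at least 0.5 higher and 2 at least 0.5 lower, where the background was 4.36% and 6.39%. The higher ones were Ptx3 (pentraxin 3, 1.40), Aspg (asparaginase, 1.03), Sphk1 (sphingosine kinase 1, 0.80), Tm4sf1 (0.66) and Ggta1 (0.55), and the lower ones S100a10 (-1.07) and the chemokine gene Cxcl10 (-0.76). C3, the central complement component, had 11.01 log2 CPM in DMSO and 10.82 in AdipoRon libraries and stood at 8.55 per kilobase, below Gfap at 9.36. Between Tau and WT libraries, none of these genes (0) differed by 0.5 or more, beside 4.22% higher and 3.51% lower of all genes, and C3 differed by 0.35.

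In the STAT3 pathway list, 3 of 11 genes had means at least 0.5 higher in AdipoRon libraries and 0 at least 0.5 lower, beside 4.36% and 6.39% of all genes. They were the feedback inhibitor Socs3 (0.51), the CNTF receptor gene Cntfr (0.51) and the cytokine gene Osm (0.61, from a mean below 1 CPM). Stat3 itself had 8.08 log2 CPM in DMSO and 8.40 in AdipoRon libraries, a difference of 0.31. The STAT3 list too was chosen with earlier results of these data known, so its counts describe the listed genes only.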

How the data were processed

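The authors had trimmed the reads, aligned them with STAR, quantified them with RSEM and fitted group comparisons in edgeR. The methods and the submitters' processing notes name mm10, the paper's results GRCm39 and the table names Rsubread, so the build and counter behind the values were not settled. The authors' deposited tables give each gene a mean level as log2 CPM over the libraries compared, and scaling, prior count and filter on low genes are not stated. Their other columns (fold change, likelihood ratio, p-value, false discovery rate and a direction call) are the authors' own comparisons and were not used.

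Genotype and treatment were read from the sample titles. Means were converted to CPM, divided by the canonical transcript length in GENCODE vM39 (matched by symbol or RefSeq synonym) and subtracted between pools, with a size limit of 0.5 on the log2 scale and no pseudocount. No test was run, because the means carry no spread. The steps of subtracting and counting were checked on simulated data, which tells nothing of the spread between libraries. Python 3.11.15, pandas 2.3.3 and numpy 2.4.6 were used.

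The genes were named with values by rule: the 5 highest and 3 lowest of each set and the 5 largest differences in each direction. Others were chosen after their values were seen. Genes and lists were chosen with earlier results of these data known. The alternatives were other tables, filters on low levels, limits of 0.25 and 1 and centring on the median of all genes.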

Additional observations from a re-analysis of the deposited data

How the results depend on the processing

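The median level of the 37 genes was 8.34 log2 CPM in DMSO libraries, and 8.42, 8.39 and 8.27 in AdipoRon, WT and Tau libraries. Without Gjb6, the gene below 1 log2 CPM, the median in DMSO libraries was 8.44. At a limit of 0.25 in place of 0.5, 9 of the 37 genes were higher and 3 lower in AdipoRon libraries (15.9% and 15.1% of all genes). In Tau libraries 1 was higher and 5 lower (12.6% and 8.85% of all genes). For AdipoRon the share of the 37 genes was thus above that of all genes for higher means and below it for lower means. For Tau the reverse held. With a limit of 1, the counts in the same order were 0, 0, 0 and 1, the last being Id3, beside 0.675%, 1.75%, 0.126% and 0.508% of all genes. Among genes over 1 or over 4 log2 CPM, 1 gene (Cd44) in place of 2 was higher in AdipoRon libraries, since Gjb6 was left out. These shares of 2.78% (over 1) and 2.94% (over 4) stood beside 3.41% and 2.05% of all genes at such levels. Centred on the median of all genes (0.02), 2 genes in place of 1 were lower in AdipoRon libraries, as Steap4 passed the limit. The share of all genes was not computed after centring. The other counts stayed within 1.5 times, and no gene past the limit of 0.5 turned its direction by centring. No paired analysis was possible because the tables hold no values per library, although the reporting summary has samples of the same animal in each treatment, and for the same reason no library could be left out. Levels near 1 CPM, as for Gjb6, rest on fewer reads than those of the other genes, and the reads in each library are not given. Levels per kilobase assume the canonical transcript for each gene.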
